A study of Homo sapiens with 12 samples.

Results

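The integrated stress response and the unfolded protein response were followed through 50 genes chosen by symbol, among 20042 genes that all 12 arrays gave a value for. The cells were HEK-293T cells, a human embryonic kidney epithelial line, carrying a Dox-inducible short hairpin RNA against 1 subunit of the CCR4-NOT complex, the main deadenylase of the cell, or against firefly luciferase (Luci). Of the 50 genes, 31 form an amino-acid arm that answers to the transcription factor ATF4, and 19 form a chaperone arm that answers to XBP1 and ATF6. The rule lists symbols, but the list was drawn up with earlier results of these data known. Where a gene had several spots, the spot with the highest mean stands for it, which applied to 14 genes, while 36 had 1 spot.

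The knock-down groups were CNOT1 +Dox with 1 array, CNOT2 +Dox with 2 arrays and CNOT3 +Dox with 1 array, each being cells with the hairpin of that name given 1 µg/ml Dox for 4 days. They were set against the untreated cells of the same line, namely CNOT1 -Dox (1 array), CNOT2 -Dox (2 arrays) and CNOT3 -Dox (1 array), and against the control line as Luci +Dox (2 arrays) and Luci -Dox (2 arrays). All 4 lines hold a stably integrated pINDUCER plasmid, and each comes from stable clones or transfectants, so that the effect of a line and of its clone cannot be told apart. The CNOT1 and CNOT3 arrays and replicate 1 of the CNOT2 and Luci groups were taken as the first experiment and replicate 2 as a repeat, in the order in which the study describes them, since the labels name no experiment. Replicates are called technical in the design text, and biological and technical in the study, so that p-values measure only the spread between these arrays. The title of the second Luci -Dox array states that no Dox was given while another of its labels states that it was, and the title was followed.

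Values are log2 intensities that the authors corrected for background and quantile-normalised, so that a difference of 1 is a 2-fold change. They were measured in RNA of whole cultures, where a change in fewer cells and a smaller change in all cells cannot be told apart. Replicates of a group correlated with r between 0.958 and 0.971 over 15033 genes. CNOT1, CNOT2 and CNOT3 mRNA each had its lowest value on the arrays of its own knock-down. CNOT3 mRNA was at 6.80 in CNOT3 +Dox and 8.96 in CNOT3 -Dox cells. On every array of the other lines it was at 9.76 or above, so that it was already lower in CNOT3 cells without Dox. Of 6 markers of HEK-293T cells, KRT18, VIM and CDH2 lay between 9.62 and 14.70 on all arrays, and KRT8, PAX2 and LHX1 between 5.71 and 9.58. The blood markers PTPRC and CD3E did not exceed 4.10 and the liver markers ALB and APOA1 did not exceed 4.87. Of the fibroblast markers, DCN did not exceed 5.46, and COL1A1 lay between 6.34 and 7.94.

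In the integrated stress response, kinases that sense amino acid shortage, unfolded protein, double-stranded RNA or heme shortage phosphorylate the translation factor eIF2. Most protein synthesis then slows while ATF4 mRNA is translated more, and ATF4 protein turns on genes that make, import and charge amino acids, together with the transcription factor DDIT3 (CHOP). In the unfolded protein response, the sensors ERN1 (IRE1), EIF2AK3 (PERK) and ATF6 respond to misfolded protein in the endoplasmic reticulum (ER). ERN1 splices XBP1 mRNA, and XBP1 and cleaved ATF6 raise chaperones and the factors that degrade misfolded proteins, while EIF2AK3 leads into the amino-acid arm through eIF2.

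Promoters of both arms were searched for regulatory sequence motifs. Any part of these motifs in the results below was not tested. RefSeq promoters of build GRCh38.p14, each with 250 bases before and 50 bases after a transcription start, any of a gene's starts counting, were found for 46 of the 50 genes and none for SHMT2, SLC7A11, PYCR1 and NUPR1. The core of the C/EBP-ATF response element, TGATGNAA on either strand, was found in 10 of 27 amino-acid genes (37%) and in 1 of 19 chaperone genes (5.26%), against 4.46% of 27305 genes with a promoter. The members with this core were ASNS, CHAC1, SLC3A2, SLC7A1, CEBPG, CARS, GARS, AARS, NARS, MARS and, in the chaperone arm, HERPUD1. It lay wholly before the start in ASNS, CHAC1, CEBPG, GARS, AARS and HERPUD1. These 6 stretches are printed 5′ to 3′ on the strand of the gene with the core in capitals, which reads TTNCATCA where the match lies on the other strand.
ASNS, chr7:97872444-97872501 (minus strand): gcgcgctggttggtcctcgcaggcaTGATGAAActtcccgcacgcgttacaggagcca
CHAC1, chr15:40953237-40953294 (plus strand): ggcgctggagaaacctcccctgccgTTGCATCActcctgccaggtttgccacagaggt
CEBPG, chr19:33374046-33374103 (plus strand): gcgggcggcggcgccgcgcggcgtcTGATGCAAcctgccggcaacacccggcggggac
GARS, chr7:30594820-30594877 (plus strand): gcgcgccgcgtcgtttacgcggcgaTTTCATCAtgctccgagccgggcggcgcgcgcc
AARS, chr16:70289661-70289718 (minus strand): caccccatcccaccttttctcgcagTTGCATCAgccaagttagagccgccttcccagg
HERPUD1, chr16:56931941-56931998 (plus strand): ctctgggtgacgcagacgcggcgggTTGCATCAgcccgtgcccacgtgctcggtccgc

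The ER stress element, CCAAT and CCACG with 9 bases of any kind between them on either strand, was found in 6 of 19 chaperone genes (31.6%) and in 0 of 27 amino-acid genes, against 0.0916% of all genes with a promoter. Its members were HSPA5, XBP1, CRELD2, HSP90B1 (with 2 matches), CALR and PDIA6. The 6 stretches below show 1 match each in capitals, including the 9 bases between its parts.
HSPA5, chr9:125241366-125241434 (minus strand): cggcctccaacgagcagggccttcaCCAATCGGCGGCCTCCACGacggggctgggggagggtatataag
XBP1, chr22:28800578-28800646 (minus strand): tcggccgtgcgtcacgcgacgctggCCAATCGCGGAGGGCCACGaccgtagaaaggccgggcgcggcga
CRELD2, chr22:49918529-49918597 (plus strand): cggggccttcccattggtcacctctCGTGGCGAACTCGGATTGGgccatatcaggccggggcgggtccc
HSP90B1, chr12:103930191-103930259 (plus strand): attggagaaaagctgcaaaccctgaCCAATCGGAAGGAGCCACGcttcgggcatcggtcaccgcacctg
CALR, chr19:12938359-12938427 (plus strand): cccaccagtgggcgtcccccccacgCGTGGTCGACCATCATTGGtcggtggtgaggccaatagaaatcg
PDIA6, chr2:10812828-10812896 (minus strand): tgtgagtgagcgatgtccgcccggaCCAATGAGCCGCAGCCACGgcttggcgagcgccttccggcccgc
The core of the XBP1 site, TGACGTGG on either strand, was found in 2 of 27 amino-acid genes (CARS and ALDH18A1) and in 1 of 19 chaperone genes (HYOU1), against 0.927% of all genes. A match is a match of letters within 300 bases and not a measured binding site. Of the 6 chaperone genes with the ER stress element, HSPA5, XBP1 and CRELD2 passed the test between the experiments described next and HSP90B1, CALR and PDIA6 did not. HERPUD1, with the C/EBP-ATF core, passed it, as did the amino-acid genes with that core except NARS. Amino-acid genes without a match to the core, such as DDIT3, TRIB3 and DDIT4, passed it as well. In that test 9.07% of all genes were higher in the repeat.

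The largest differences of these genes lay between the experiments and not between the treatments. On the 4 arrays of the repeat the amino-acid arm was higher than on the arrays of the first experiment, in knock-down and control cells and with and without Dox. Of 31 amino-acid genes, 26 were higher in the repeat, and of 18 tested chaperone genes, 4 were higher, while no gene of either arm was lower. The median log2 difference was 1.51 in the amino-acid arm and 0.35 in the chaperone arm, against -0.01 over all 15033 genes tested. These are differences of replicate 2 minus replicate 1 within the 4 groups of the CNOT2 and Luci lines, tested with limma at an adjusted p of 0.05. The comparison was added after the values had been seen. In the same test 9.07% of all genes were higher and 6.98% were lower in the repeat. Past 2-fold, 23 amino-acid genes and 3 chaperone genes were higher, against 5.76% of all genes.

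**Figure D1:**
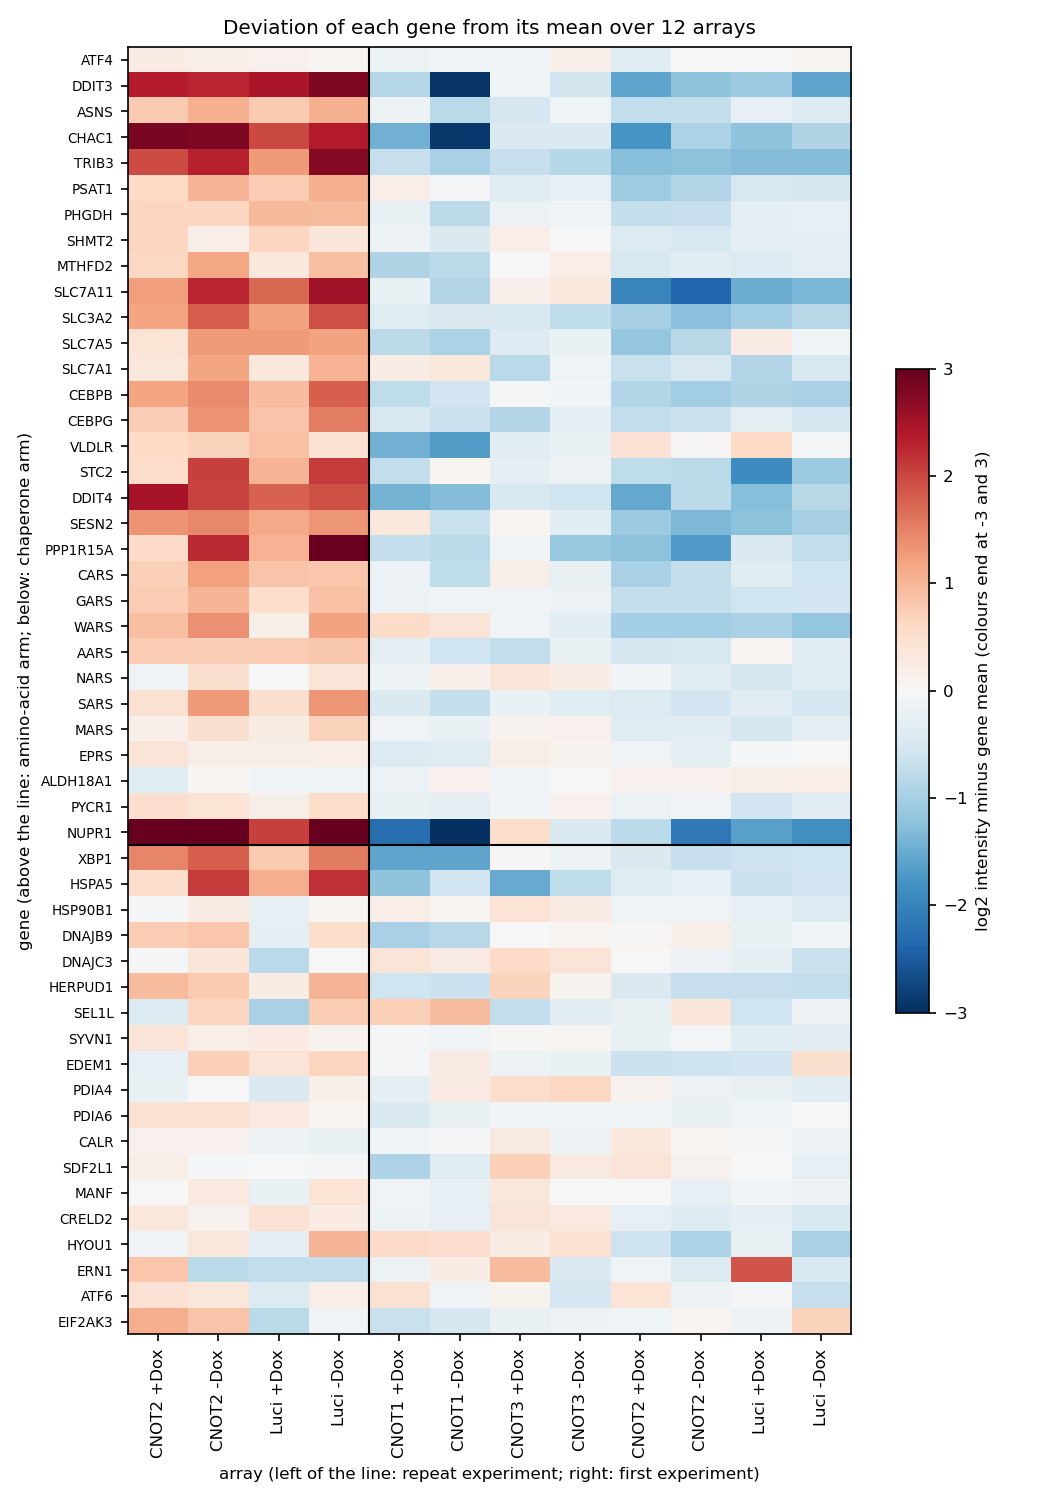
Log2 intensity of the 50 genes (rows) on 12 arrays (columns) as a deviation from each gene's own mean, with the 4 repeat arrays left of the vertical line and the 8 arrays of the first experiment right of it. The amino-acid arm, above the horizontal line, is mostly red on the repeat arrays and mostly blue on the others, with ALDH18A1 as an exception. In the chaperone arm XBP1, HSPA5 and HERPUD1 are red on all 4 repeat arrays, and rows such as ERN1, EIF2AK3 and HYOU1 have single coloured arrays.

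Summarised by array, the median deviation of the amino-acid arm from the gene means in the repeat was 0.65 in CNOT2 cells with and 1.24 without Dox, and 0.86 in Luci cells with and 1.07 without Dox. On the 8 arrays of the first experiment it lay between -0.74 and -0.12. Between 29 and 31 of the 31 genes were above their own mean on each repeat array, against 2 to 9 on each array of the first experiment. The medians of the chaperone arm overlapped between the experiments, with -0.20 to 0.34 on the repeat arrays and -0.33 to 0.21 on the others. The repeat holds no CNOT1 or CNOT3 array. Culture, RNA, labelling, hybridisation and scanning of the repeat cannot be told apart in this design.

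The calls depended on how the spread was estimated. Without 1 array of the CNOT2 +Dox, CNOT2 -Dox or Luci -Dox groups 0 of the 49 tested genes passed, and without 1 Luci +Dox array 21 did. These fits had 2 residual degrees of freedom. The medians of the amino-acid arm stayed between 1.35 and 1.68. With an intensity trend in the estimate of the spread, 34 of the 49 genes passed, all of them higher, against 13.9% of all genes, and between 31 and 33 passed without any 1 of the 8 arrays. All 4 repeat arrays lay above all 8 arrays of the first experiment for 25 amino-acid genes and 4 chaperone genes, against 6.07% of all genes. These chaperone genes were XBP1, HSPA5, SYVN1 and PDIA6, of which SYVN1 and PDIA6 did not pass the test.

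Among the 10 regulators of the amino-acid arm, 9 were higher in the repeat and ATF4 itself did not pass the test. In what follows the 4 repeat values are given for CNOT2 cells with and without Dox and then Luci cells with and without Dox, and the 8 arrays of the first experiment by their range and median. NUPR1, a small chromatin protein induced by many stresses, was at 13.01, 13.73, 12 and 13.43 in the repeat and between 6.18 and 10.48 (median 8.22) in the first experiment. Its mean difference of 4.70 (SE 0.42), which is 26-fold, was the largest of the 50 genes and the 5th highest of all genes tested (limma, adjusted p = 0.0141). DDIT3, the pro-apoptotic factor CHOP, was at 8.73, 8.66, 8.83 and 9.17 in the repeat and between 3.43 and 6.25 (median 5.22) in the first experiment. The highest of the first arrays was that of CNOT3 +Dox cells, and it lay below all repeat arrays. DDIT3 differed by 3.84 (SE 0.19, adjusted p = 0.0125) and was 9th of all genes.

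CHAC1, an enzyme that degrades glutathione, was at 13.04, 13.00, 12.17 and 12.57 in the repeat and between 7.29 and 9.76 (median 9.12) in the first experiment, a difference of 3.71 (SE 0.27, adjusted p = 0.0125). This is the brighter of 2 CHAC1 spots, and the dimmer spot had a mean of 4.90 on the 12 arrays against 10.19. TRIB3, a pseudokinase that restrains ATF4 and AKT signalling, was at 13.37, 13.76, 12.69 and 14.18 in the repeat and between 10.12 and 10.74 (median 10.33) in the first experiment. Its 8 first values spanned less than 1 log2 unit, and it differed by 3.35 (SE 0.26, adjusted p = 0.0125). DDIT4 and SESN2 code for inhibitors of mTORC1, the kinase complex that drives growth when amino acids are plentiful. DDIT4 was at 13.81, 13.38, 13.11 and 13.26 in the repeat and between 9.81 and 10.90 (median 10.30) in the first experiment, with a difference of 3.14 (SE 0.25, adjusted p = 0.0125). SESN2 was at 9.41, 9.51, 9.20 and 9.38 in the repeat and between 6.70 and 8.37 (median 7.23) in the first experiment, with a difference of 2.49 (SE 0.15, adjusted p = 0.0125). Both genes had no overlap between the experiments.

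PPP1R15A, the phosphatase subunit GADD34 that removes the phosphate from eIF2 and so ends the response, was at 7.03, 8.69, 7.51 and 9.43 in the repeat and between 4.76 and 6.36 (median 5.70) in the first experiment. Its repeat values fell into a lower pair with Dox and a higher pair without, and its mean difference was 2.72 (SE 0.48, adjusted p = 0.0258). CEBPB and CEBPG code for partners of ATF4 in binding DNA. CEBPB was at 11.63, 11.87, 11.37 and 12.24 in the repeat and between 9.40 and 10.41 (median 9.63) in the first experiment, a difference of 2.28 (SE 0.20, adjusted p = 0.0134). CEBPG was at 12.15, 12.76, 12.27 and 12.94 in the repeat and between 10.54 and 11.11 (median 10.82) in the first experiment, a difference of 1.67 (SE 0.20, adjusted p = 0.0176). ATF4 mRNA was at 15.41, 15.35, 15.31 and 15.26 in the repeat and between 14.83 and 15.35 (median 15.12) in the first experiment. Its ranges overlapped, and its difference of 0.22 (SE 0.15, adjusted p = 0.362) did not pass the test. ATF4 lay close to the highest value of the whole table, 15.98, and the part of the upper end of the scale in its small difference was not tested.

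**Figure D2:**
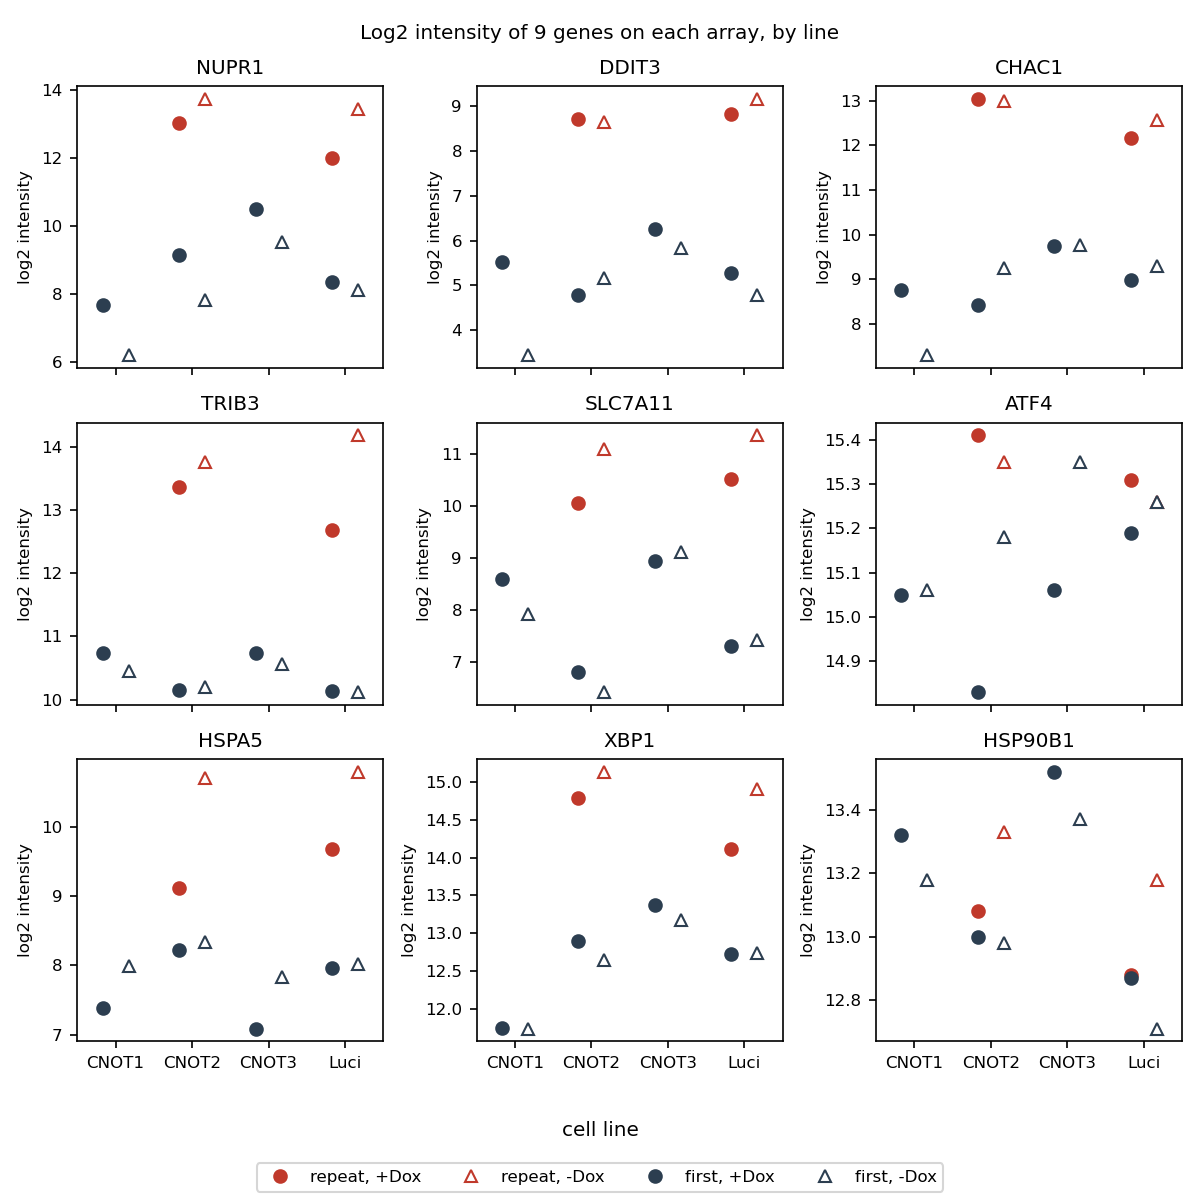
Log2 intensity (vertical axes, each with its own range) of 9 genes on the 12 arrays by cell line, with repeat arrays in red, arrays of the first experiment in dark blue, +Dox as filled circles and -Dox as open triangles. NUPR1, DDIT3, CHAC1, TRIB3, SLC7A11, HSPA5 and XBP1 have their 4 repeat arrays above all 8 first arrays, and ATF4 and HSP90B1 do not.

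Of the 4 amino acid transporters all were higher in the repeat. SLC7A11, the cystine importer, was at 10.05, 11.09, 10.52 and 11.35 in the repeat and between 6.43 and 9.11 (median 7.68) in the first experiment, a difference of 3.76 (SE 0.28, adjusted p = 0.0125) and 11th of all genes. SLC3A2, the heavy chain that carries SLC7A11 and SLC7A5 to the membrane, was at 10.41, 11.04, 10.45 and 11.16 in the repeat and between 7.97 and 8.87 (median 8.44) in the first experiment, a difference of 2.56 (SE 0.20, adjusted p = 0.0125). The leucine importer SLC7A5 was at 9.48, 10.34, 10.33 and 10.27 in the repeat and between 7.90 and 9.31 (median 8.48) in the first experiment, a difference of 1.51 (adjusted p = 0.0188). The arginine and lysine importer SLC7A1 was the closest of the 4 to an overlap, with 10.08, 10.93, 10.07 and 10.79 in the repeat and between 8.87 and 10.06 (median 9.28) in the first experiment, a difference of 1.34 (adjusted p = 0.0176).

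Of the 7 genes of amino acid and one-carbon synthesis, 6 were higher in the repeat. ASNS, which makes asparagine and carries the C/EBP-ATF core printed above, was at 15.01, 15.30, 15.03 and 15.30 in the repeat and between 13.42 and 14.11 (median 13.79) in the first experiment, with a difference of 1.45 (SE 0.17, adjusted p = 0.0171). PHGDH and PSAT1 catalyse successive steps of serine synthesis. PSAT1 was at 13.20, 13.63, 13.38 and 13.67 in the repeat and between 11.54 and 12.80 (median 12.19) in the first experiment (difference 1.60, adjusted p = 0.0152). PHGDH was at 13.24, 13.24, 13.57 and 13.54 in the repeat and between 11.82 and 12.46 (median 12.34) in the first experiment (difference 1.28, adjusted p = 0.0148). Serine feeds the mitochondrial one-carbon enzymes SHMT2 and MTHFD2. MTHFD2 was at 12.57, 13.10, 12.25 and 12.85 in the repeat and between 11.04 and 12.15 (median 11.57) in the first experiment (difference 1.14, adjusted p = 0.0212). SHMT2 was at 13.35, 12.92, 13.35 and 13.08 in the repeat and between 12.24 and 12.91 (median 12.43) in the first experiment (difference 0.82, adjusted p = 0.0243). Proline synthesis was divided between its enzymes. PYCR1, its last enzyme, was at 14.68, 14.60, 14.35 and 14.73 in the repeat and between 13.60 and 14.32 (median 13.99) in the first experiment (difference 0.71, adjusted p = 0.0286). ALDH18A1, its first enzyme, was at 10.20, 10.61, 10.47 and 10.43 in the repeat and between 10.39 and 10.77 (median 10.68) in the first experiment, and its difference of -0.29 (adjusted p = 0.189) did not pass the test.

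Of the 8 cytoplasmic tRNA synthetases, which load amino acids onto their tRNAs, 6 were higher in the repeat. WARS, for tryptophan, had the largest difference of this group, with 11.01, 11.49, 10.29 and 11.32 in the repeat and between 8.96 and 10.66 (median 9.46) in the first experiment (difference 1.96, adjusted p = 0.0176). Its experiments overlapped, because the CNOT1 arrays of the first experiment were at 10.66 with and 10.51 without Dox. CARS, for cysteine, was at 7.21, 7.74, 7.37 and 7.33 in the repeat and between 5.53 and 6.69 (median 6.02) in the first experiment (difference 1.57, adjusted p = 0.0161). GARS, for glycine, was at 9.65, 9.90, 9.41 and 9.76 in the repeat and between 8.18 and 8.79 (median 8.51) in the first experiment (difference 1.44, adjusted p = 0.0158). Neither of these overlapped between the experiments. The serine enzyme SARS was at 13.14, 13.96, 13.15 and 14.01 in the repeat and between 11.95 and 12.47 (median 12.26) in the first experiment (difference 1.35, adjusted p = 0.0284). The alanine enzyme AARS was at 9.55, 9.52, 9.54 and 9.60 in the repeat and between 8.05 and 8.87 (median 8.39) in the first experiment (difference 1.07, adjusted p = 0.0207). For the methionine enzyme MARS the ranges nearly touched, with 10.83, 11.15, 10.91 and 11.37 in the repeat and between 10.16 and 10.80 (median 10.45) in the first experiment (difference 0.76, adjusted p = 0.0275). NARS and EPRS, for asparagine and for glutamate and proline, differed by 0.52 and 0.35 and did not pass the test (adjusted p = 0.116 and 0.136).

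Of the 2 genes for secreted and surface proteins, the hormone STC2 was higher in the repeat, at 5.78, 7.29, 6.25 and 7.34 against between 3.36 and 5.30 (median 4.48) in the first experiment (difference 2.57, SE 0.34, adjusted p = 0.018). The lipoprotein receptor VLDLR was at 7.74, 7.83, 8.02 and 7.60 in the repeat and between 5.46 and 7.74 (median 7.02) in the first experiment, and its difference of 0.41 (adjusted p = 0.115) did not pass.

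**Figure D3:**
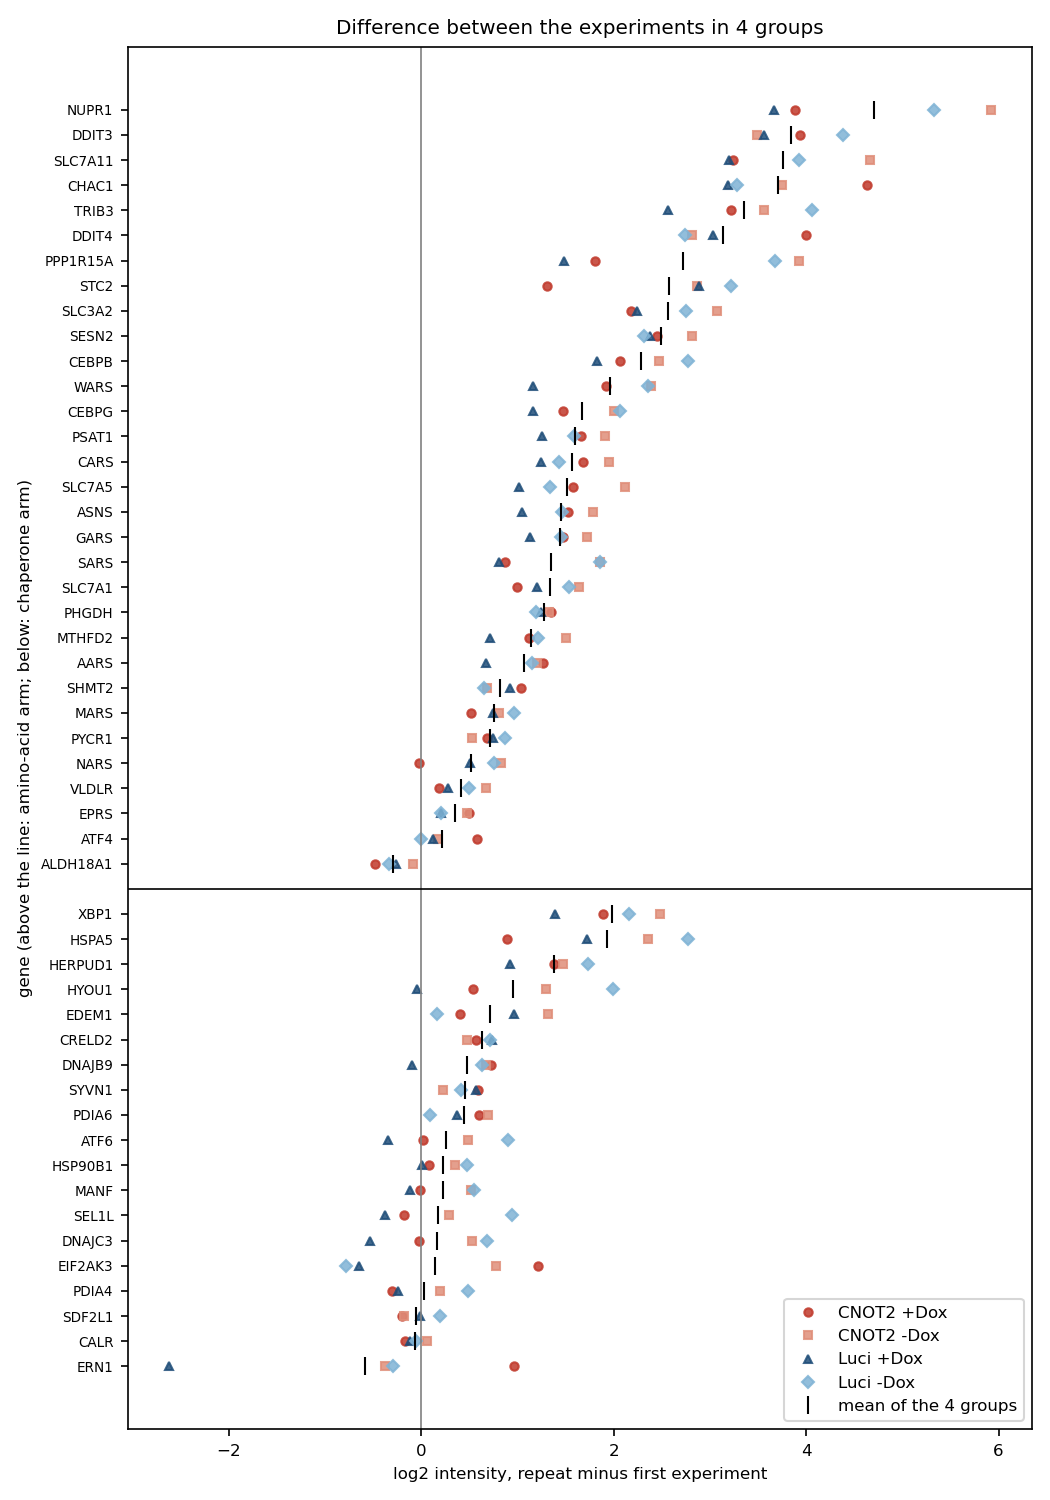
Log2 intensity in the repeat minus the first experiment (horizontal axis) for each of the 50 genes (rows, ordered within each arm), with 1 point for each group of the CNOT2 and Luci lines, with and without Dox, and a bar at their mean. All 4 points lie right of 0 for the 26 amino-acid genes that passed the test, while points of ERN1, EIF2AK3 and DNAJC3 lie on both sides of 0.

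In the chaperone arm, 4 of 18 tested genes were higher in the repeat. XBP1, the transcription factor of the arm, was at 14.79, 15.13, 14.11 and 14.90 in the repeat and between 11.74 and 13.37 (median 12.73) in the first experiment, a difference of 1.98 (SE 0.21, adjusted p = 0.0161). The array value does not tell its spliced from its unspliced form. HSPA5, the ER chaperone BiP that binds unfolded protein, was at 9.11, 10.70, 9.68 and 10.79 in the repeat and between 7.09 and 8.34 (median 7.98) in the first experiment, a difference of 1.93 (SE 0.33, adjusted p = 0.0243). HERPUD1, an ER membrane protein of the degradation machinery, was at 12.96, 12.78, 12.24 and 13.02 in the repeat and between 11.29 and 12.68 (median 11.39) in the first experiment, a difference of 1.38 (SE 0.17, adjusted p = 0.0176). The CNOT3 +Dox array, at 12.68, was the first-experiment array that reached into its repeat range. CRELD2, a secreted ER stress protein, was at 11.55, 11.33, 11.67 and 11.47 in the repeat and between 10.76 and 11.61 (median 10.98) in the first experiment, a smaller difference of 0.63 (SE 0.13, adjusted p = 0.0344).

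The other chaperones and folding enzymes did not pass the test, and their differences between the experiments lay between -0.07 for CALR and 0.95 for HYOU1. HSP90B1, the ER chaperone GRP94, differed by 0.23, PDIA4 by 0.03 and PDIA6 by 0.44. Among these genes HSP90B1, CALR and PDIA6 carry the ER stress element, as HSPA5 does. The repeat arrays of PDIA6, from 9.89 to 10.29, all lay above its first arrays, from 9.40 to 9.80. DNAJB9, a co-chaperone of HSPA5, was at 9.90, 9.98, 8.85 and 9.68 in the repeat and between 8.16 and 9.31 (median 9.09) in the first experiment, a difference of 0.48 (adjusted p = 0.138). The Luci +Dox array of the repeat was its lowest repeat value and lay within the range of the first experiment. SDF2L1, MANF and DNAJC3 differed by -0.05, 0.23 and 0.16. The degradation genes SEL1L, SYVN1 and EDEM1, a ubiquitin ligase adaptor, its ligase and a mannosidase-like lectin, differed by 0.17, 0.45 and 0.71 and did not pass.

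Of the sensors, ATF6 was at 9.50, 9.40, 8.66 and 9.28 in the repeat and between 8.38 and 9.52 (median 8.99) in the first experiment (difference 0.26, adjusted p = 0.471). EIF2AK3 was at 5.26, 5.03, 3.37 and 4.06 in the repeat and between 3.51 and 4.84 (median 4.02) in the first experiment, higher in both CNOT2 groups and lower in both Luci groups (mean difference 0.14, adjusted p = 0.828). ERN1 had a mean of 2.89 over all arrays, under the filter of 2.96, and was not tested. Its values were 3.72, 2.09, 2.15 and 2.15 in the repeat and between 2.44 and 4.77 (median 2.75) in the first experiment, with the highest of these in Luci +Dox.

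Genes of the same pathways outside the 50 were counted by lists that were chosen with earlier results of these data known. Among 27 other genes described as ATF4 targets, 21 were higher and 0 were lower in the repeat (median difference 1.51). They included SLC6A9, a glycine transporter, with 3.53, ATF5, a factor related to ATF4, with 2.77, and the mitochondrial PCK2, with 2.44, all with an adjusted p of 0.0165 or below. ATF3, with 0.75 and an adjusted p of 0.253, and KLHL24, with -0.26 and 0.279, were among the 6 that did not pass. Of 32 other ER chaperone and unfolded protein response genes, 1 was higher (SEC61A1, 1.07) and 3 were lower (ERO1L, -0.88, SEC24D, -1.21, and KDELR3, -1.12), with a median of 0.02. Another list held 11 genes for eIF2, its kinases, its exchange factor and the phosphatase subunit PPP1R15B. Of these, EIF2B4 was higher (0.87) and EIF2AK1, the heme-sensing kinase, was lower (-0.65), with a median of 0.31. Of 7 other cytoplasmic tRNA synthetases, FARSA was higher (0.98) and the median was -0.14. The counts of both ATF4 lists lay above the 9.07% of all genes, and that of the other chaperone list, 1 of 32, lay below it.

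The knock-down of a CCR4-NOT subunit was first compared with untreated cells of the same line. The study itself set each knock-down against Luci +Dox cells and, for CNOT2, also against untreated CNOT2 cells. No gene passed the test for Dox in its own line, neither among the 50 nor among all 15033 genes (0% in CNOT1, CNOT2, CNOT3 and Luci cells). At an unadjusted p under 0.05 there were 383 genes in the CNOT1, 610 in the CNOT2, 465 in the CNOT3 and 417 in the Luci line, of which 0, 0, 0 and 1 were among the 50. With the experiment as a block, likewise no gene passed in any of the 4 lines, and 3, 0, 0 and 2 of the 49 genes had an unadjusted p under 0.05 in CNOT1, CNOT2, CNOT3 and Luci cells (768, 1411, 1062 and 891 of all genes). Without the block, the difference between the experiments enters the spread. The SE of DDIT3 for Dox in CNOT1 cells was thus 2.99 without the block and 0.388 with it. Differences past 2-fold were read as descriptions, since no gene passed.

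In CNOT1 cells, Dox went with higher DDIT3, NUPR1 and CHAC1. DDIT3 was at 5.52 in CNOT1 +Dox and 3.43 in CNOT1 -Dox cells, a difference of 2.09. NUPR1 was at 7.67 in CNOT1 +Dox and 6.18 in CNOT1 -Dox cells, a difference of 1.49. CHAC1 was at 8.75 in CNOT1 +Dox and 7.29 in CNOT1 -Dox cells, a difference of 1.46. These 3 of 49 genes were past 2-fold higher, against 5% of all genes, and 0 were past 2-fold lower, against 3.59%. In each case the CNOT1 -Dox array was the lowest of all 12 arrays, and the CNOT1 +Dox array lay within the range of the other first arrays for DDIT3 and CHAC1 and below the other lines for NUPR1. The amino-acid arm had a median of 0.18 with 21 of 31 genes above 0, and the chaperone arm a median of -0.01. STC2 (-0.81), HSPA5 (-0.60) and SDF2L1 (-0.57) were lowest. With 1 array in each group these differences have no replicate check of their own.

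In CNOT3 cells, PPP1R15A was at 6.36 in CNOT3 +Dox and 5.31 in CNOT3 -Dox cells, a difference of 1.05, and was the only one of the 49 genes past 2-fold higher, against 5.87% of all genes. None was past 2-fold lower, against 4.28%. NUPR1 (0.96) and ATF6 (0.61) followed, and HSPA5 (-0.75), SLC7A1 (-0.68) and CEBPG (-0.57) were lowest. The medians were -0.01 in the amino-acid arm and 0.08 in the chaperone arm.

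In CNOT2 cells, 0 of the 49 genes were past 2-fold in the mean of both experiments, against 3.83% of all genes higher and 1.81% lower. ATF6 (0.34), NUPR1 (0.30) and SHMT2 (0.25) were highest and HSPA5 (-0.85), SEL1L (-0.81) and STC2 (-0.73) lowest. The mean of NUPR1 hid opposite values, with -0.72 in the repeat and 1.32 in the first experiment. STC2 had -1.51 in the repeat and 0.05 in the first experiment, and HSPA5 had -1.59 and -0.12. SEL1L was lower with Dox in both, with -1.05 and -0.58. In Luci cells, SEL1L had a mean difference of -1.08, and 1 of 49 genes past 2-fold lower compares with 1.86% of all genes, while 0 were past 2-fold higher, against 2.38%. SEL1L was at 5.30 in Luci +Dox and 7.04 in Luci -Dox cells of the repeat, and at 5.68 and 6.10 in the same groups of the first experiment. VLDLR (0.53), SLC7A5 (0.22) and CRELD2 (0.18) were highest, and STC2 (-0.92) and PPP1R15A (-0.82) were next to SEL1L at the low end. With the second Luci -Dox array counted as Luci +Dox, as its other label has it, the median of the amino-acid arm in Luci cells was 1.02 in place of -0.28.

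**Figure D4:**
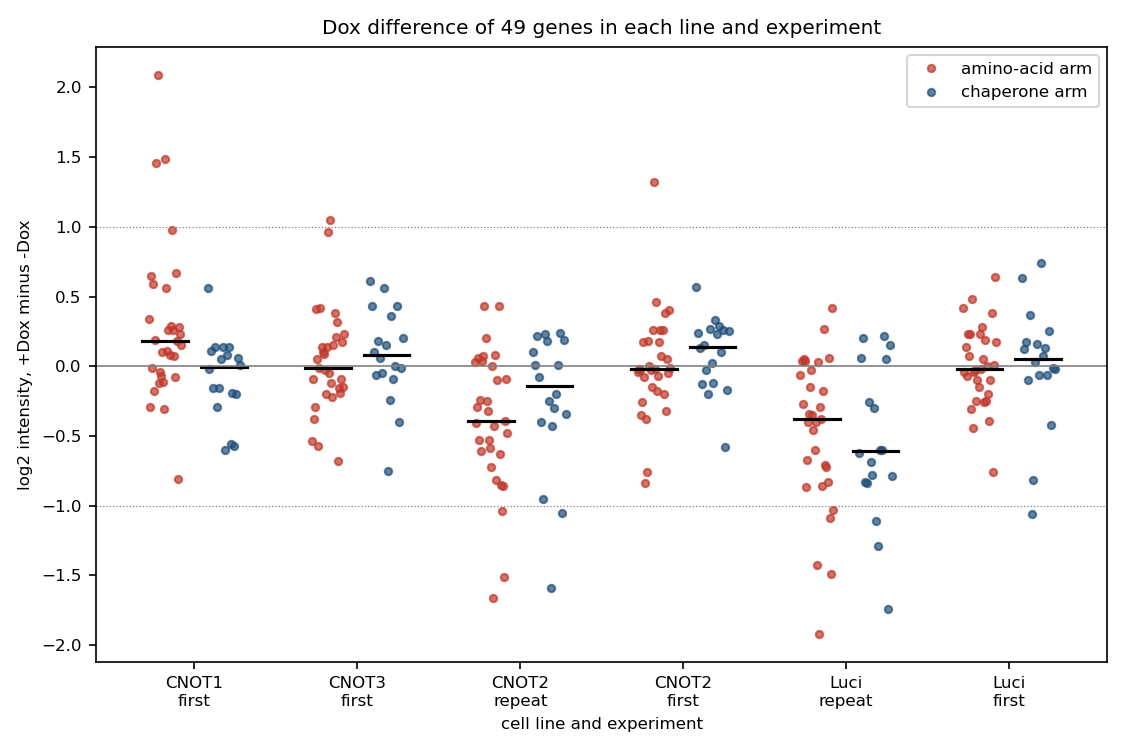
Log2 intensity with Dox minus without Dox (vertical axis) for 31 amino-acid and 18 chaperone genes in each line and experiment (horizontal axis), 1 point a gene, with bars at the medians and dotted lines at 2-fold. The medians of the amino-acid arm are -0.39 in CNOT2 and -0.38 in Luci cells of the repeat and between -0.02 and 0.18 in the 4 lines of the first experiment.

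The medians of the Dox difference were lower in the repeat than in the first experiment, in the knock-down line as in the control line, but no single gene passed the test of this change. In the repeat, the median of the amino-acid arm was -0.39 in CNOT2 and -0.38 in Luci cells, and in the first experiment it was -0.02 in both. The chaperone arm had -0.14 in CNOT2 and -0.61 in Luci cells of the repeat, against 0.14 and 0.05 in the first experiment. PPP1R15A was at 7.03 in CNOT2 +Dox and 8.69 in CNOT2 -Dox, and at 7.51 in Luci +Dox and 9.43 in Luci -Dox cells of the repeat. In the first experiment it was at 5.22 in CNOT2 +Dox and 4.76 in CNOT2 -Dox, and at 6.03 in Luci +Dox and 5.75 in Luci -Dox cells. Its Dox difference was thus lower by 2.16 in the repeat (SE 0.25, adjusted p = 0.293). For NUPR1 the Dox difference was lower by 1.85 (SE 0.30, adjusted p = 0.293), for HYOU1 by 1.40 and for HSPA5 by 1.26 (adjusted p = 0.305 and 0.321).

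No gene passed this test of the change in the Dox difference (0% of 15033, with 13 of the 49 genes and 2170 of all genes at an unadjusted p under 0.05), which was also added after the values had been seen. With an intensity trend in the spread, 10 of the 49 genes passed, all of them lower in the repeat, against 1.88% of all genes. They were PPP1R15A, NUPR1, HSPA5, SLC7A11, SARS, TRIB3, CEBPG, CEBPB, XBP1 and MANF, with differences between -2.16 for PPP1R15A and -0.60 for MANF. DDIT4 (0.74), CHAC1 (0.39) and SHMT2 (0.31) had the highest values of this comparison. It rests on the title of the second Luci -Dox array.

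The Dox effect in CNOT2 cells did not pass the test against that in Luci cells for any gene (0%, with 0 of the 49 genes at an unadjusted p under 0.05 and 363 of all genes). With the experiment as a block no gene passed either, and 0 of the 49 and 770 of all genes had such a p. NUPR1 (0.90), EIF2AK3 (0.77) and HERPUD1 (0.60) were highest and SLC7A5 (-0.81), CARS (-0.53) and VLDLR (-0.38) lowest. The mean Dox effect of the 3 knock-down lines likewise gave no call (0%, with 0 of the 49 and 732 of all genes at an unadjusted p under 0.05). With the block it gave no call either, and 2 of the 49 and 1700 of all genes had such a p. NUPR1 was at 0.92, DDIT3 at 0.79 and ATF6 at 0.50, and HSPA5 at -0.73, STC2 at -0.54 and SEL1L at -0.47.

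Against Luci +Dox cells, 0 of the 49 genes passed in CNOT2 +Dox (0% of all genes), CNOT1 +Dox (0.233%) and CNOT3 +Dox cells (0.273%). At an unadjusted p under 0.05 there were 0, 3 and 2 of the 49 genes and 809, 1765 and 1725 of all genes in these comparisons. With the experiment as a block these were 1, 8 and 14 of the 49 genes and 1754, 3482 and 3204 of all genes, and VLDLR passed in CNOT1 +Dox cells. In CNOT2 +Dox cells SLC7A5 was the only one of the 49 past 2-fold, against 6.54% of all genes in either direction. In the repeat it was at 9.48 in CNOT2 +Dox cells, against 10.33 in Luci +Dox cells. In the first experiment the same groups were at 7.90 and 9.31, and the mean difference was -1.13. EIF2AK3 (0.96), NUPR1 (0.90) and ATF6 (0.65) were highest and PPP1R15A (-0.65) and SLC7A11 (-0.49) were next to SLC7A5. The CNOT2 line as a whole, with and without Dox, gave no call against the Luci line (0%, with 0 of the 49 and 865 of all genes at an unadjusted p under 0.05). With the block it gave no call either, and 2 of the 49 and 1854 of all genes had such a p. EIF2AK3 (0.57), ATF6 (0.49) and DNAJC3 (0.47) were highest and PPP1R15A (-0.76), SLC7A5 (-0.73) and SLC7A11 (-0.56) lowest. Within the first experiment EIF2AK3 had 0.03 in CNOT2 +Dox against Luci +Dox cells and -0.28 between the lines. Its mean over all arrays was 4.17.

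The CNOT1 and CNOT3 lines have arrays in the first experiment alone, whereas the Luci means include the repeat. Their differences from Luci cells are therefore given within the first experiment and with the experiment as a block. For the CNOT1 line against the Luci line, with and without Dox, VLDLR was the only one of the 49 genes that passed (2.26% of all genes). It was at 5.69 in CNOT1 +Dox and 5.46 in CNOT1 -Dox cells, against 7.74 in Luci +Dox and 7.10 in Luci -Dox cells of the first experiment. On every array of the other lines it was at 6.79 or above. The mean difference was -2.04 (SE 0.30, adjusted p = 0.0275), and it was -1.84 with the block (SE 0.19, adjusted p = 0.0142). Between CNOT1 +Dox and Luci +Dox cells it was -2.19 (adjusted p = 0.138), and -1.99 with the block (adjusted p = 0.045), where 1.18% of all genes passed. A second VLDLR spot had a mean of 2.79 against 7.14, and with the mean of both spots VLDLR did not pass (adjusted p = 0.0508). It also missed the threshold without any 1 of the 4 Luci arrays or either CNOT2 +Dox array, with an adjusted p up to 0.0909 and a difference between -2.17 and -1.92.

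With the block, WARS and SESN2 also passed in the CNOT1 line, where 10.6% of all genes did. WARS was at 10.66 in CNOT1 +Dox and 10.51 in CNOT1 -Dox cells, against 9.13 in Luci +Dox and 8.96 in Luci -Dox cells of the first experiment (difference with the block 1.64, adjusted p = 0.0402). SESN2 was at 8.37 in CNOT1 +Dox and 7.39 in CNOT1 -Dox cells, against 6.82 in Luci +Dox and 7.07 in Luci -Dox cells (difference with the block 1.01, adjusted p = 0.0392). Within the first experiment, 4 of the 49 genes were past 2-fold higher in the CNOT1 line, against 8.39% of all genes, namely WARS (1.54), SEL1L (1.2), STC2 (1.16) and HYOU1 (1.14). Another 3 were past 2-fold lower, against 8.24%, namely VLDLR, NUPR1 (-1.29) and CHAC1 (-1.12). These shares are close to those of all genes. NUPR1, CHAC1 and DDIT3 had -3.54, -2.73 and -2.54 without the block, where the repeat enters the Luci mean. Between CNOT1 +Dox and Luci +Dox cells of the first experiment, SESN2 (1.55), WARS (1.53) and SEL1L (1.31) were highest and VLDLR (-2.05), SLC7A5 (-1.03) and XBP1 (-0.97) lowest. Without the block, SEL1L (1.5), WARS (0.95) and DNAJC3 (0.94) were highest and NUPR1 (-2.50), VLDLR (-2.19) and CHAC1 (-1.82) lowest. DNAJC3 had 0.68, NUPR1 -0.66 and CHAC1 -0.23 within the first experiment.

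In the CNOT3 line, 0 of the 49 genes passed against the Luci line, against 1.18% of all genes (4 of the 49 and 2426 of all genes at an unadjusted p under 0.05). With the block 0 passed, against 3.86% (16 of the 49 and 3700 of all genes at an unadjusted p under 0.05). The same held for CNOT3 +Dox against Luci +Dox cells with the block, where 0.705% of all genes passed. Within the first experiment 5 genes were past 2-fold higher, against 6.11% of all genes, and 0 were lower, against 6.01%. NUPR1 was at 10.48 in CNOT3 +Dox and 9.52 in CNOT3 -Dox cells, against 8.33 in Luci +Dox and 8.10 in Luci -Dox cells, and SLC7A11 was at 8.95 and 9.11 in the CNOT3 groups, against 7.32 and 7.42 in the Luci groups. The differences of the line were 1.79 for NUPR1, 1.66 for SLC7A11, 1.28 for STC2, 1.10 for HERPUD1 and 1.01 for DDIT3. The median was 0.45 in the amino-acid arm, with 24 of 31 genes above 0, and 0.32 in the chaperone arm, against 0.03 over all genes. Without the block, where the repeat enters the Luci mean, DNAJC3 (0.92), PDIA4 (0.78) and SDF2L1 (0.57) were highest in the CNOT3 line and HSPA5 (-1.65), PPP1R15A (-1.34) and TRIB3 (-1.13) lowest. With the block PPP1R15A (0.02) and TRIB3 (0.55) were above 0, and within the first experiment they had -0.06 and 0.53. HSPA5 was at 7.09 in CNOT3 +Dox and 7.84 in CNOT3 -Dox cells, against 7.96 in Luci +Dox and 8.02 in Luci -Dox cells of the first experiment. Between CNOT3 +Dox and Luci +Dox cells of the first experiment, NUPR1 (2.15), SLC7A11 (1.63) and STC2 (1.61) were highest and VLDLR (-0.95), HSPA5 (-0.87) and AARS (-0.82) lowest. The median of the amino-acid arm in this comparison was 0.62 with the block and -0.19 without it. Without the block, DNAJC3 (1.13), HERPUD1 (0.90) and PDIA4 (0.85) were highest and HSPA5 (-1.73), AARS (-1.15) and CEBPG (-1.15) lowest, while NUPR1 had 0.32 and SLC7A11 0.03.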

How the data were processed

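Whole-cell RNA of 12 HEK-293T samples was hybridised to 1-colour Agilent arrays with 62976 spots. The deposited values are log2 intensities, which the authors obtained by taking logarithms of mean spot signals, correcting the background by normexp on negative control spots and quantile normalisation. The log base was inferred from the value range of 1.56 to 15.98. The table carries no detection call, 13 to 90 spots per array had no value, and precision is limited by how many arrays there are. Quantile normalisation gives every array the same distribution, so that a shift shared by most genes cannot be seen.

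Of 20088 named genes, 20042 had values on all arrays. The spot with the highest mean stood for each gene, and genes with a mean under the 25th percentile (2.96) were left out, which left 15033 genes and 49 of the 50. Differences were tested with limma 3.58.1 in R 4.3.3 over 8 group means of all 12 arrays (4 residual degrees of freedom), with Benjamini-Hochberg adjustment over all genes tested and a threshold of 0.05. Deviations of replicate 2 from replicate 1 correlated between all 6 pairs of replicated groups (r between 0.365 and 0.614), so that the numbers pair the samples, and a fit with the replicate number as a block is given where it changes a call. The repeat was compared with the first experiment by the replicate term of that fit.

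Genes were named in full if they were key regulators or chaperones, had an adjusted p under 0.05 in a comparison, or were among the 3 highest or 3 lowest of a comparison. The 50 genes and all lists were chosen with earlier results of these data known. The fit was tested on simulated data with independent noise and, for the Dox and line comparisons, no shift between the experiments. That simulation does not show how the fit without the block behaves under such a shift. Alternatives were the filter, the mean of a gene's spots, the block, an intensity trend, another centring, each replicate left out, and the other label of the second Luci -Dox array.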

Additional observations from a re-analysis of the deposited data

How the results depend on the processing

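Of 2308 values under alternative settings, 1973 kept their direction and their side of the threshold or moved by less than a set tolerance. Of the remaining 335, 91 were labelled as moved, 215 as weaker, 16 as stronger and 13 as reversed. Changed main results and reversed signs are given here, and most weaker or stronger values of single genes are not. The cause was not tested except where fewer arrays or genes entered. The tests between the experiments and of the change in the Dox difference held the replicate term in every setting. The block setting could therefore not change their counts. With the replicate block, 178 genes and 1 of the 49 (VLDLR) passed in CNOT1 +Dox against Luci +Dox cells, 106 genes in CNOT3 +Dox against Luci +Dox cells, 1593 genes and 3 of the 49 in the CNOT1 line and 581 genes in the CNOT3 line, by limma. Among genes past 2-fold without the block, it turned the sign in CNOT1 +Dox against Luci +Dox cells for CHAC1 (0.031), DDIT3 (0.391) and PPP1R15A (0.342). It did so in the CNOT1 line for TRIB3 (0.485) and in the CNOT3 line for PPP1R15A (0.018) and TRIB3 (0.55), and none of these passed. Smaller differences turned as well, such as SLC7A11 in CNOT1 +Dox against Luci +Dox cells (-0.32 without and 1.559 with the block). The median of the amino-acid arm in that comparison was -0.46 without the block and 0.342 with it. The block changed no other call.

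Replicate block and intensity trend together, chosen after seeing the data, gave the same values for the genes past 2-fold that turned. That setting gave 1651 genes and 7 of the 49 in CNOT1 +Dox against Luci +Dox cells, 1183 and 8 in CNOT3 +Dox against Luci +Dox cells, 26 genes in CNOT2 +Dox against Luci +Dox cells, 3215 and 12 in the CNOT1 line, 1890 and 12 in the CNOT3 line and 34 genes in the CNOT2 line. It gave 1 gene for Dox in CNOT1 cells, 2 in CNOT3 cells and 1 for the mean of the 3 knock-downs. The trend gave 4067 genes between the experiments and 840 genes and 10 of the 49 for the change in the Dox difference. Both of these tests hold the block in every setting. The trend alone gave 538 genes in the CNOT1 line.

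Without a filter, 1272 genes differed between the experiments. With the 50th percentile as the filter, 26 genes passed in CNOT3 +Dox against Luci +Dox cells and 513 in the CNOT1 line. With the mean of a gene's spots, 0 of the 49 passed in the CNOT1 line. With the second Luci -Dox array as Luci +Dox, the medians of the amino-acid and chaperone arms were 1.017 and 0.247 for Dox in Luci cells and -1.317 and -0.289 for the Dox effect in CNOT2 against Luci cells, 197 genes passed in the CNOT1 line, and 959 differed between the experiments. In the repeat alone, the chaperone arm had -0.61 for Dox in Luci cells.

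Leaving out 1 replicate at a time, 0 to 13 genes passed in CNOT1 +Dox and 5 to 27 in CNOT3 +Dox against Luci +Dox cells, 86 to 179 genes and 0 to 1 of the 49 in the CNOT1 line, and 66 to 121 genes in the CNOT3 line. Between the experiments it was 0 to 358 genes and 0 to 21 of the 49, and with the intensity trend 2382 to 3529 genes and 31 to 33 of the 49. Chaperone medians ranged from -0.335 to 0.23 for Dox in CNOT2 cells, -0.51 to 0.145 for Dox in Luci cells and -0.162 to 0.477 for their difference. DDIT3 in CNOT1 +Dox against Luci +Dox cells ranged from -3.31 to 0.25. A group left with 1 array was assumed to vary like the others.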
